A study of Mus musculus with 2 samples.

Results

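The genes described here encode the machinery that folds proteins in the endoplasmic reticulum (ER) and the sensors of the unfolded protein response, in 2 lines of B16F1 mouse melanoma cells. The 35 genes were chosen by name from their known roles, with earlier ratios from these same arrays in view, so every count and median over them is a description. All 35 were on the arrays, among 27788 genes or transcripts. Of the 35, 34 were detected, which here means that the brightest probe of the gene stood well above background on both arrays for the same line. For these 34 it did so for both lines. The exception was *Derl3*, a degradation factor, which was not well above background in any channel and got no fold.

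B16F1-GFP-M is the maternal line, B16F1 cells that carry a GFP expression vector. B16F1-GFP-D is a clonal line grown from a single colony of such cells, sorted from pooled organs of control and immunised mice that stayed free of tumours for 1 year after they had been challenged. The paper calls it dormant and derived from disseminated melanoma cells (DMCs), a name for the history of its founder and not for its state in culture. Both lines were grown in the same serum-containing medium, received no treatment and share the GFP vector. RNA of the lines was hybridised together on 2 Agilent 2-colour arrays of 1 slide, with B16F1-GFP-M in Cy5 on array 1 and B16F1-GFP-D in Cy5 on array 2. No source separates the RNAs of the 2 arrays, which were therefore taken as 1 replicate per line, and no test between the lines was possible. Each ± below is the standard deviation between the 2 arrays, which holds dye and technical error and no variation between cultures. Over the 12540 detected genes its pooled value was 0.148 on the log2 scale.

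Proteins that are secreted or membrane-bound enter the ER through the SEC61 channel, where chaperones hold them, protein disulfide isomerases form their disulfide bonds and prolyl isomerases turn their proline bonds. Proteins that fail to fold are pulled back into the cytosol and degraded. When unfolded proteins accumulate, the sensors IRE1 (*Ern1*), ATF6 and PERK (*Eif2ak3*) respond. IRE1 splices the mRNA of the transcription factor XBP1, ATF6 is cut to release a transcription factor, and PERK slows translation and favours that of ATF4. ATF6 and XBP1 raise the transcription of chaperones, disulfide isomerases and degradation factors. The arrays measured amounts of mRNA and neither splicing, cleavage nor phosphorylation.

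In B16F1-GFP-D, mRNAs of most of the folding factors chosen here were higher than in the maternal line and those of *Atf6* and *Ern1* were lower. Of the 34 detected genes, 24 had a higher level in B16F1-GFP-D on both arrays (70.6%, against 41.0% of all detected genes), and 8 had a lower level on both (against 42.8% of all). *Xbp1* and *Sec61g* changed sign between the arrays. *Sdf2l1*, *Creld2*, *Manf* and *Pdia6* were at least 2-fold higher on each array, which is 11.8% of the 34 beside 3.09% of all detected genes. *Atf6* and *Ern1* were at least 2-fold lower on each array, where the share of all detected genes was 1.95%. At 1.5-fold on each array 9 genes were higher and the same pair was lower, where all detected genes gave 8.76% higher and 7.03% lower. Ratios are given as B16F1-GFP-D to B16F1-GFP-M on the log2 scale. Their median over the 34 genes was 0.34 (array 1, 0.41; array 2, 0.33), and over all detected genes it was -0.01. It was -0.003 for other ER chaperones and cofactors and 0.07 for other disulfide and redox genes. For chaperones of the cytosol and mitochondria it was 0.44. These lists are described below. The shares of the 34 genes rest on genes picked with such ratios known, and nothing is inferred from them.

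**Figure D1:**
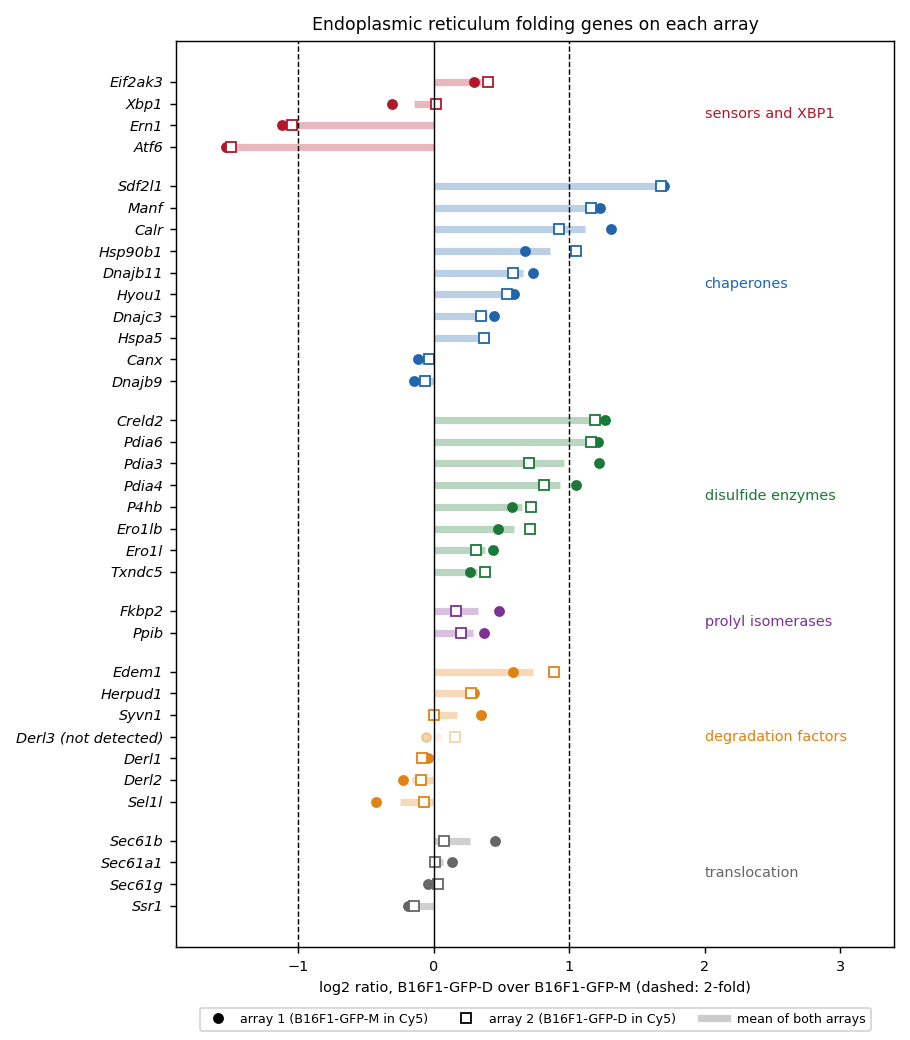
Log2 ratio of B16F1-GFP-D to B16F1-GFP-M (x axis) of each of the 35 genes (y axis), ordered by role, on array 1 (filled circles) and array 2 (open squares), with bars for the mean. All 8 disulfide enzymes lie to the right of 0 on both arrays, while *Atf6* and *Ern1* lie beyond the 2-fold line on the left, and *Derl3* is drawn faintly because it was not detected.

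ATF6 and XBP1 are known to act through short promoter elements, which were searched for in RefSeq promoter sequences (build GRCm38.p6) that run from 250 bases before to 50 bases after a transcription start. The table holds a promoter for 30 of the 35 genes, and *Atf6*, *Derl1*, *Manf*, *Hyou1* and *Sec61a1* have none in it. The ER stress element, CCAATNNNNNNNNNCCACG read on either strand, was found in promoters of 10 of these 30 genes (33.3%) and in 39 of all 32851 promoters (0.119%). The first share counts genes, which had 35 promoters together. The second counts promoters, with those of the 30 genes among them, so the shares are not like for like. The genes were also chosen for their known parts in the response that acts through this element, so nothing is inferred from the difference. The 10 genes were *Hspa5*, *Hsp90b1*, *Dnajc3*, *Calr*, *Canx*, *Pdia6*, *Ero1lb*, *Creld2*, *Syvn1* and *Derl3*, and *Hsp90b1* held it at 2 places. A second form of the element, ATTGGNCCACG, occurred in *Herpud1* and, 7 to 17 bases after the start, in *Dnajb11*, and in 0.0365% of all promoters. The octamer TGACGTGG occurred in 1 promoter of *Txndc5* and in 0.676% of all promoters. No match of one motif overlapped a match of another in these genes. The 250 bases before the start are shown for 7 genes that differ in their ratios, from *Creld2* at 1.23 to *Canx* at -0.07, with the ER stress element, or in *Herpud1* its second form, in capitals.
*Creld2*, chr15:88819396-88819645, plus strand: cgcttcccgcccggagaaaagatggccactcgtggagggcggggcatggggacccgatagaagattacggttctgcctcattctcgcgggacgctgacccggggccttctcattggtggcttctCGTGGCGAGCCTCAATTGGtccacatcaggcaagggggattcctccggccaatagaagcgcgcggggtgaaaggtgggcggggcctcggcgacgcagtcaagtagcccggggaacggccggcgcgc
*Pdia6*, chr12:17266339-17266588, plus strand: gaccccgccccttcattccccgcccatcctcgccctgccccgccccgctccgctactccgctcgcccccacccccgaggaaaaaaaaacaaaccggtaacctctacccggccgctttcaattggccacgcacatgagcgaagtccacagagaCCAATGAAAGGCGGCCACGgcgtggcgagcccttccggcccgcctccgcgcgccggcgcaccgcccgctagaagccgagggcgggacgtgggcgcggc
*Calr*, chr8:84846932-84847181, minus strand: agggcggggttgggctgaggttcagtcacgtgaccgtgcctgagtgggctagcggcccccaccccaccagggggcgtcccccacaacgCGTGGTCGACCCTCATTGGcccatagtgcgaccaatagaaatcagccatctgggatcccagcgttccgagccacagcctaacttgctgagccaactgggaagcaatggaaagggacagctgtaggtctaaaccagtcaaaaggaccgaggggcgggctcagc
*Hsp90b1*, chr10:86705445-86705694, minus strand: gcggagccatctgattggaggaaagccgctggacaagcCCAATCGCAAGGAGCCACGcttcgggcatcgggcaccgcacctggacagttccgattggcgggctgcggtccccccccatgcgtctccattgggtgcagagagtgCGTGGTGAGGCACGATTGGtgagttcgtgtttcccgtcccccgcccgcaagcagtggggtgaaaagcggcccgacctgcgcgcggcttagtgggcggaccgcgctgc
*Hspa5*, chr2:34771840-34772089, plus strand: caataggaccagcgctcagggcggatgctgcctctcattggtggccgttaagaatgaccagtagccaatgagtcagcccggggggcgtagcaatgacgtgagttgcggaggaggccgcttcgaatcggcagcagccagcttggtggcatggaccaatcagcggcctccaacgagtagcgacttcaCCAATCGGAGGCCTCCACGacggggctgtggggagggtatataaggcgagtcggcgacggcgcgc
*Herpud1*, chr8:94386179-94386428, plus strand: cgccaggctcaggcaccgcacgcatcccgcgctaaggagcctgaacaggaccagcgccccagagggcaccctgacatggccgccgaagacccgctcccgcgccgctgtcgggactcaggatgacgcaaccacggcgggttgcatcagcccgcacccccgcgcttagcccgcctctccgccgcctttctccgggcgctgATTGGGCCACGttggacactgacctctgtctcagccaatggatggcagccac
*Canx*, chr11:50325674-50325923, minus strand: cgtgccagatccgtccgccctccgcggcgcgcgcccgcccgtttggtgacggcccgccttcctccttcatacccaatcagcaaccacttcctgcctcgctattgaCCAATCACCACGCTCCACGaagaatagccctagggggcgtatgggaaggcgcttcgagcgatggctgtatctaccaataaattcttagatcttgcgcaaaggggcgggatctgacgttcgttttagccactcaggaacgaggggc

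In these sequences the element reads along the gene in *Pdia6*, *Hspa5* and *Canx* and against it in *Creld2* and *Calr*, and *Hsp90b1* has a copy in each direction. Counted with the start as 0, its first base lay at -65 in *Hspa5*, -98 in *Pdia6*, -126 in *Creld2*, -145 in *Canx* and -162 in *Calr*. Of the 9 detected genes with an ER stress element, 8 had a positive mean log2 ratio, the median was 0.60 and the range ran from -0.07 to 1.23. Of the 20 detected genes with a promoter and no such element, 13 had a positive mean, the median was 0.31 and the range ran from -1.08 for *Ern1* to 1.69 for *Sdf2l1*. The ranges overlap. *Sdf2l1*, the gene with the largest ratio, held none of the 3 motifs in this window, which says only that these exact letters are not there. A match is not a binding site shown to be in use, and no factor binding was measured.

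**Figure D2:**
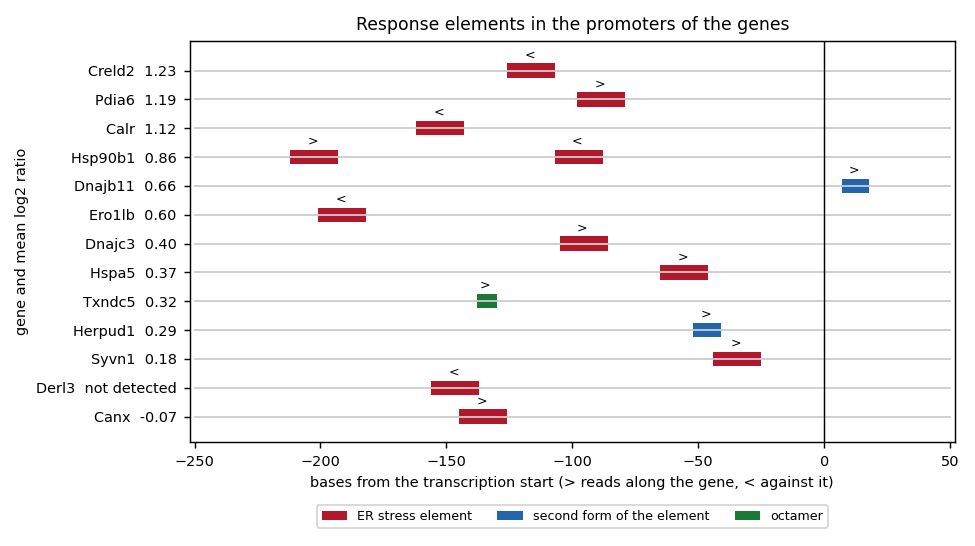
Position of each motif match in bases from the transcription start (x axis) in the 13 genes that held one, ordered by mean log2 ratio of B16F1-GFP-D to B16F1-GFP-M, which stands beside each name. ER stress elements (red) lie before the start in 10 genes, including *Canx*, whose mean ratio was -0.07.

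The sensors differed in direction. *Atf6* mRNA, read by a probe at chr1:172637679-172637738 (mm9, minus strand), had a normalized log2 intensity of 10.11 in B16F1-GFP-D and 11.65 in B16F1-GFP-M on array 1, and of 10.06 and 11.55 on array 2. It was thus lower in B16F1-GFP-D by 2.85-fold (log2 ratio -1.51 ± 0.03), and a second probe in another stretch of the transcript gave -1.21. *Ern1*, with a probe at chr11:106258948-106259007 (mm9, minus strand), measured 8.29 and 9.41 on array 1 and 8.15 and 9.20 on array 2, in the same order of lines. Its level was 2.12-fold lower (-1.08 ± 0.05). For both genes the values of the lines did not overlap over the arrays, and the next lowest mean among the 34 genes was -0.24, for *Sel1l*. *Eif2ak3*, which encodes PERK, was slightly higher in B16F1-GFP-D at 0.35 ± 0.07, with log2 intensities of 8.99 and 9.03 in B16F1-GFP-D and 8.69 and 8.62 in B16F1-GFP-M. *Xbp1* had ratios of -0.31 on array 1 and 0.02 on array 2, so its direction was not settled. As these are bulk RNA samples, fewer cells with an mRNA and less of it per cell cannot be told apart.

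Among the 10 chaperones and their cofactors, 8 had more mRNA in B16F1-GFP-D on each array, beside 41.0% of all detected genes. By 1.5-fold on each array 5 were higher, beside 8.76% of all, and the median log2 ratio was 0.61. *Sdf2l1*, an ER-resident partner of DNAJ co-chaperones, had log2 intensities of 11.94 in B16F1-GFP-D and 10.23 in B16F1-GFP-M on array 1 and of 11.80 and 10.13 on array 2 (probe at chr16:17130426-17130485, mm9, minus strand). Its level was 3.23-fold higher (1.69 ± 0.02), rank 68 from the top among the 12540 detected genes. *Manf*, an ER-resident protein that is also secreted and binds BiP, measured 12.15 and 10.92 on array 1 and 12.08 and 10.91 on array 2 (probe at chr9:106791278-106791337, mm9, minus strand), which is 2.29-fold higher (1.20 ± 0.05). For both genes the B16F1-GFP-D values lay above the maternal values by far more than the spread between arrays.

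The lectin chaperones, which hold glycoproteins by their sugar chains, differed from each other. *Calr*, which encodes soluble calreticulin, had log2 intensities of 13.74 and 13.50 in B16F1-GFP-D and 12.43 and 12.58 in B16F1-GFP-M on arrays 1 and 2, and log2 ratios of 1.31 and 0.92. It passed 2-fold on array 1 alone, and its second probe gave 1.20. *Canx*, the membrane-bound relative calnexin, measured 13.94 and 13.91 in B16F1-GFP-D and 14.05 and 13.94 in B16F1-GFP-M. Its mean ratio of -0.07 was smaller than the pooled spread between arrays, and 1 of its other probes gave 0.03. Both genes held an ER stress element in their promoters.

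The abundant ER chaperones of the HSP70 and HSP90 families were higher by less than 2-fold on average. *Hsp90b1*, which encodes GRP94, had log2 ratios of 0.67 on array 1 and 1.05 on array 2, with intensities of 15.13 and 15.25 in B16F1-GFP-D and 14.45 and 14.20 in B16F1-GFP-M. *Hspa5*, which encodes BiP, the HSP70 chaperone that also restrains the sensors, had a ratio of 0.37 on both arrays, or 1.30-fold. Its log2 intensity was 14.51 in B16F1-GFP-D and 14.14 in B16F1-GFP-M on array 1, and 13.87 and 13.50 on array 2. Each line's level of *Hspa5* thus differed more between the arrays than the lines differed within an array, and the comparison rests on the ratios within arrays. *Hyou1*, an HSP70-like nucleotide exchange factor for BiP, was at 0.57 ± 0.04. Among the DNAJ co-chaperones of BiP, *Dnajb11* was at 0.66 ± 0.10 and *Dnajc3* at 0.40 ± 0.07, while *Dnajb9* was at -0.10 ± 0.05, and the 2 other *Dnajb9* probes gave 0.08 and 0.01.

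Each of the 8 disulfide enzymes had more mRNA in B16F1-GFP-D on both arrays, beside 41.0% of all detected genes, and their median log2 ratio was 0.79. *Creld2*, an ER protein with disulfide isomerase activity, had log2 intensities of 14.49 in B16F1-GFP-D and 13.22 in B16F1-GFP-M on array 1 and of 14.46 and 13.27 on array 2 (probe at chr15:88656997-88657056, mm9, plus strand), or 2.35-fold higher (1.23 ± 0.05). *Pdia6*, a disulfide isomerase, measured 14.62 and 13.41 on array 1 and 14.44 and 13.28 on array 2 (probe at chr12:17290963-17291022, mm9, plus strand), or 2.28-fold higher (1.19 ± 0.03). The 4 *Pdia6* probes gave mean ratios between 1.05 and 1.57. *Creld2*, *Manf* and *Pdia6* differed from each other in their mean ratios by less than the pooled spread between arrays.

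Of the classical disulfide isomerases, *Pdia3*, which works with calreticulin and calnexin on glycoproteins, had ratios of 1.22 on array 1 and 0.71 on array 2, the widest spread of the 34 genes (SD 0.37). Its log2 intensities were 13.35 and 12.97 in B16F1-GFP-D and 12.13 and 12.26 in B16F1-GFP-M. *Pdia4* was at 0.94 ± 0.17, with 1.05 on array 1 and 0.82 on array 2. *P4hb*, which encodes protein disulfide isomerase itself, was at 0.65 ± 0.10 and lay just under 1.5-fold on array 1. *Txndc5*, a thioredoxin-domain isomerase, had the lowest ratio of the enzymes at 0.32 ± 0.08, and its second probe gave -0.11. The oxidases that recharge these enzymes were at 0.38 ± 0.09 for *Ero1l* and 0.60 ± 0.17 for *Ero1lb*. *Ero1lb* was dim, with log2 intensities from 6.95 to 7.72, and its ratio was 1.13 in the scanner software's own values, where it passed 2-fold on each array.

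**Figure D3:**
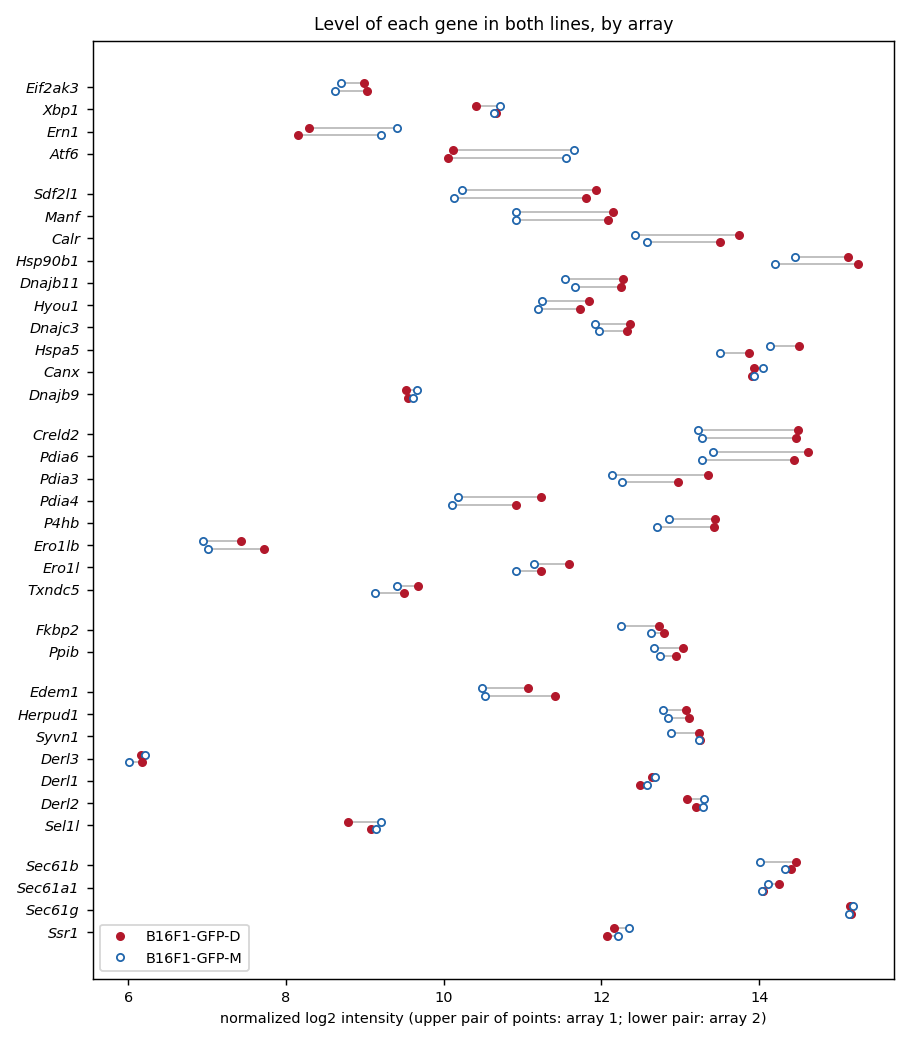
Normalized log2 intensity (x axis) of the brightest probe of each of the 35 genes (y axis) in B16F1-GFP-D (red filled points) and B16F1-GFP-M (blue open points), the upper pair for array 1 and the lower for array 2. *Sdf2l1*, *Manf*, *Creld2* and *Pdia6* have both red points above both blue points, *Atf6* and *Ern1* have the reverse, and *Hspa5* shifts between the arrays in both lines. Intensities of different probes are not comparable as levels of their genes.

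The prolyl isomerases, which turn proline bonds in folding chains, were a little higher in B16F1-GFP-D, *Ppib* (cyclophilin B) at 0.29 ± 0.12 and *Fkbp2* at 0.32 ± 0.22. For *Fkbp2* the ratio was 0.48 on array 1 and 0.17 on array 2.

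The degradation factors showed no common direction. Of the 6 that were detected, 3 were higher and 3 were lower on both arrays, where all detected genes gave 41.0% higher and 42.8% lower. None passed 1.5-fold on each array, and the median was 0.06, with 0.13 on array 1 and -0.03 on array 2. *Edem1*, a mannosidase-like factor that delivers misfolded glycoproteins to degradation, stood apart at 0.74 ± 0.22. Its log2 intensities were 11.07 and 11.41 in B16F1-GFP-D and 10.49 and 10.52 in B16F1-GFP-M, and its other probes gave 0.92 and 0.43. The genes of the membrane complex that carries misfolded proteins out of the ER lay on both sides of 0. *Herpud1*, a membrane protein of that complex, was a little higher in B16F1-GFP-D at 0.29 ± 0.02, and *Syvn1*, its ubiquitin ligase HRD1, was at 0.18 ± 0.24. *Sel1l*, the partner of HRD1, was at -0.24 ± 0.25, *Derl1* at -0.06 ± 0.03 and *Derl2* at -0.16 ± 0.09. A second *Derl2* probe, which was dimmer, gave -0.76.

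The translocation genes had a median of 0.03 by their brightest probes and of 0.18 by the median of each gene's probes. Among the SEC61 channel subunits, *Sec61a1* was at 0.07 ± 0.09, *Sec61b* at 0.27 ± 0.26 and *Sec61g* at -0.01 ± 0.05. The other 2 probes of *Sec61a1*, both dimmer, gave 0.42 and 0.26 and were positive on each array. *Ssr1*, a subunit of the translocon-associated protein complex, was at -0.17 ± 0.03 by its brightest probe, while its 4 dimmer probes gave 0.13 to 0.35. Its direction therefore depends on the probe.

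Set side by side, the median log2 ratio was -0.61 for the sensors and *Xbp1*, 0.61 for the chaperones, 0.79 for the disulfide enzymes, 0.31 for the prolyl isomerases, 0.06 for the degradation factors and 0.03 for the translocation genes. The median of the disulfide enzymes exceeded that of the degradation factors by 0.74, 0.69 on array 1 and 0.75 on array 2. It exceeded that of the chaperones by 0.18. The roles overlapped gene by gene, since *Edem1* had a higher ratio than *P4hb*, *Ero1lb*, *Ero1l* and *Txndc5*. No translocation gene, and of the degradation factors only *Edem1*, had a mean ratio larger in size than 2 times the pooled spread between arrays.

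The array designs placed 71 probes on the 35 genes, and 14 genes had 1 probe. Of the 36 probes other than the brightest, 32 were detected, and 23 of these had the sign of the brightest probe. None differed from it by more than 1 on the log2 scale. Probes of opposite sign belonged to *Canx*, *Derl1*, *Dnajb9*, *Ssr1* and *Txndc5*, none of which passed 1.5-fold. Among the genes called at 2-fold, only *Pdia6* and *Atf6* had other probes. *Sdf2l1*, *Creld2*, *Manf* and *Ern1* had 1 probe each, so no second probe could disagree.

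Other genes of the ER and of the same response were described through 11 lists of neighbouring pathways, which leave out the 35 genes. Each count at 2-fold below is to be set beside the shares of all detected genes, 3.09% higher and 1.95% lower. Of 14 other detected disulfide and redox genes none passed 2-fold, the median was 0.07, and the values ran from -0.58 for *Tmx3* to 0.86 for *Txndc11*, both thioredoxin-related membrane proteins. Of 13 other ER chaperones and cofactors none passed 2-fold either, with a median of -0.003 and a range from -0.68 for *Cnpy2* to 0.50 for *Dnajc25*. On both arrays 2 of the 13 were higher (15.4%) and 5 were lower, where all detected genes gave 41.0% higher and 42.8% lower. The collagen-folding genes had a median of 0.31 over 17 detected, and 1 was called, *P4ha2*, a subunit of collagen prolyl 4-hydroxylase, at 1.86. The lowest in that list was the lysyl hydroxylase *Plod3* at -0.44.

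For N-glycosylation and glycan checking, 19 genes were detected with a median of 0.05. The oligosaccharyltransferase subunits *Krtcap2*, at -1.07, and *Ddost*, at 0.86, lay at its ends, and only *Krtcap2* passed 2-fold. Of 24 other degradation factors, 1 passed 2-fold, *Ubxn6*, a cofactor of the p97 ATPase, at -1.09. The highest in that list was *Selk* at 0.51 and the median was -0.09. Of 26 other translocation and signal peptide genes none passed 2-fold, with a median of 0.02, *Tram1* at 0.93 and *Serp1* at -0.74. The vesicle coat COPII, which carries folded proteins out of the ER, had 18 detected genes and none called, with a median of 0.18, *Surf4* at 0.67 and *Sec22b* at -0.43.

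Among the other sensors, related transcription factors and proteases, 9 genes were detected. On both arrays 5 of them were lower in B16F1-GFP-D and 3 were higher, where all detected genes gave 42.8% lower and 41.0% higher. By the 2-fold rule 1 was lower, *Wfs1*, which encodes an ER membrane protein, at -1.31. The median was -0.15 and the highest was *Rtcb*, the ligase that joins spliced *Xbp1*, at 0.19. The PERK and ATF4 arm had the lowest median of the lists. Of its 20 detected genes, 13 were at least 2-fold lower, beside 1.95% of all detected genes, and none was higher, beside 3.09%. The median was -1.63, and the largest differences were *Nupr1* at -3.56, *Atf5* at -3.37, *Trib3* at -3.24 and *Cebpb* at -2.67. These encode a stress-induced chromatin protein, the pseudokinase TRIB3 and transcription factors. Among the 3 sensors, *Eif2ak3*, the one that acts on this arm, was the one that was not lower. Its mRNA does not give the activity of PERK, which was not measured, and what lowered the genes of this arm was not tested.

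Chaperones of the cytosol and mitochondria had a median of 0.44 over 28 detected genes, and 2 passed 2-fold, *Hsp90aa1* at 1.31 and *Hspa8* at 1.23, the stress-inducible cytosolic HSP90 and the constitutive cytosolic HSP70. In the list of ER calcium pumps, channels and calcium-binding proteins 1 of 14 genes passed 2-fold, *Rcn3*, an ER calcium-binding protein of the CREC family, at 2.85. The median there was 0.13 and the lowest was *Sdf4* at -0.22.

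**Figure D4:**
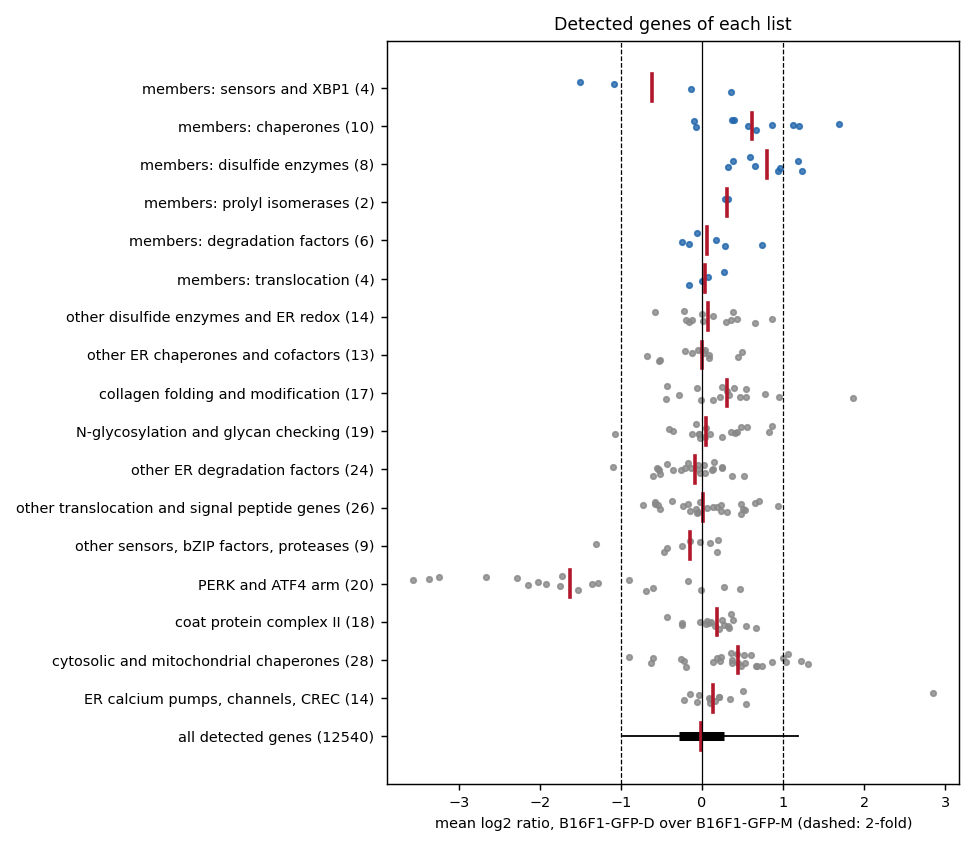
Mean log2 ratio of B16F1-GFP-D to B16F1-GFP-M (x axis) of each detected gene (points) by list, with the number of detected genes in brackets, a red line at the median and dashed lines at 2-fold. The bottom row gives all detected genes, with the thick bar for the middle 50% and the thin line for the middle 95%. The PERK and ATF4 arm has its median at -1.63, and the disulfide enzymes theirs at 0.79.

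All 12 melanocyte markers were well above background in every channel, with mean ratios from -0.92 for *Mitf* to 0.37 for *Gpr143*, and their summed intensity was 335000 and 390600 in B16F1-GFP-D and 420200 and 375800 in B16F1-GFP-M on arrays 1 and 2. Plasma cells are rich in ER. Of 8 plasma cell markers only *Sdc1*, which other cells also express, was well above background in every channel, and *Igj*, *Cd79a*, *Prdm1*, *Pou2af1* and *Tnfrsf17* were not in any. *Sdc1*, which encodes syndecan-1, had log2 ratios of 1.57 and 1.67. The summed intensity of all 8 markers was 1296 and 1465 in B16F1-GFP-D and 792.6 and 795.4 in B16F1-GFP-M. Without *Sdc1* the other 7 summed to 576.4 and 488.4 in B16F1-GFP-D and to 551 and 488.3 in B16F1-GFP-M. Fibroblast markers were well above background in every channel for 2 of 10 genes, and *Col3a1*, *Pdgfra*, *Dcn* and *Lum* in none, with sums of 904 and 977.3 against 823.1 and 887.3. Of the 5 fibroblast markers that were detected, 4 were higher in B16F1-GFP-D on each array, beside 41.0% of all detected genes. The median log2 ratio was 0.40, from -0.33 for *Col1a2* to 0.83 for *Pdgfrb*, which was past 1.5-fold on each. *Pdgfrb* was not well above background in B16F1-GFP-M on either array, so its difference is better read as a lower limit, a log2 ratio of 0.75. Every channel of leukocyte markers was well above background for 1 of 9 genes, and for none of the 6 endothelial, 6 epithelial and 4 liver genes. The part of other cell types in the ratios of the folding genes was not tested.

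Array 1 had 44.1% of its spots well above background for B16F1-GFP-D and 60.7% for B16F1-GFP-M, and array 2 had 56.1% and 45.0%, so the brighter channel was Cy5 on both. The values of single arrays depend on the correction for this dye difference. When arrays were centred on their median in place of the intensity-dependent loess correction, array 1 gave the 34 genes a median ratio of -0.62 and array 2 one of 1.79, and none passed 2-fold on both. A dye effect cancels in the mean of the arrays only where it is equal on both. That mean was then 0.56 for the median gene, in place of 0.34 under loess. For all detected genes it was 0.07, in place of -0.01, so the dye effect did not fully cancel. The disulfide enzymes, chaperones and prolyl isomerases kept the highest medians, in that order, and the sensors the lowest, while the degradation factors (0.31) and the translocation genes (0.38) exchanged places.

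**Figure D5:**
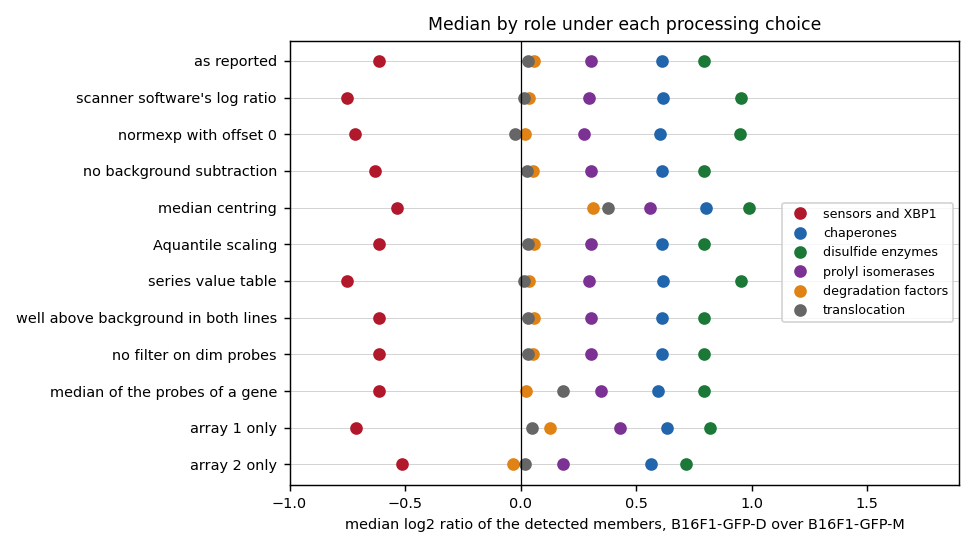
Median log2 ratio of B16F1-GFP-D to B16F1-GFP-M (x axis) of the detected genes of each role (colours) under each processing choice (y axis). The disulfide enzymes lie highest and the sensors with *Xbp1* lowest under every choice.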

How the data were processed

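RNA of the 2 lines was compared on 2 arrays with exchanged dyes. The deposited intensities of spots and local background are the authors' scanner output (Agilent Feature Extraction 10.7.3.1) and are not normalized. The deposited log10 ratios of Cy5 over Cy3 were computed by the authors' software after background subtraction and dye normalization. The deposited series table holds the same log10 values to within 0.005, not turned for the dye exchange. The paper's methods do not settle the normalization.

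Control spots and flagged outlier spots (143 and 176) were left out. In R 4.3.3 with limma 3.58.1, the background was corrected with normexp (offset 50) and each array was normalized by loess. Channel levels came from Aquantile scaling. All ratios were turned to put B16F1-GFP-D on top and taken as log2. The offset draws ratios of dim spots towards 0. Probe accessions were matched to RefSeq symbols (27198 of 28075), and a gene was read from its brightest probe. Probe positions are on mm9, as in the array files. A gene was called when its ratio was 2-fold or more, in 1 direction, on each array. This rule goes by size only and tests nothing. The normalization and the 2-fold rule were tested on simulated arrays, with bright probes and changes larger than most of those found here. The other steps were not tested in this way.

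The members and lists were chosen with earlier results of these data known. Named genes were all members and, for each pathway list, up to 4 called genes with the largest differences and, where fewer than 2 were called, the highest and lowest detected gene. The tables and plots used Python 3.11.15, pandas 2.3.3, numpy 2.4.6 and matplotlib 3.10.9. Alternatives changed the log ratio, the offset, background subtraction, normalization, filter, choice of probe, arrays and fold threshold.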

Additional observations from a re-analysis of the deposited data

How the results depend on the processing

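The 4 genes called higher and the 2 called lower kept these calls under 10 of 12 alternatives, all but median centring and the 3-fold threshold. Several of the 10 could not change a call. Aquantile scaling left the ratios as they were, and both filter choices kept genes that were well above background in every channel. The median of a gene's probes could not change *Sdf2l1*, *Creld2*, *Manf* or *Ern1*, which had 1 probe each. A gene called on both arrays passes on each array alone, and the series table repeats the scanner software's ratio. The count of higher genes ran from 5 with array 2 only, which added *Hsp90b1*, to 7 with array 1 only, which added *Calr*, *Pdia3* and *Pdia4*. At 3-fold, 1 gene was higher (*Sdf2l1*) and 0 were lower. The scanner software's ratio added *Ero1lb*, giving 5. Under median centring the counts were 0 higher and 0 lower at 2-fold and 1 higher and 0 lower at 1.5-fold, the counts in the other pathway lists (without the cytosolic chaperones) were 1 higher and 4 lower in place of 2 and 16, and the median ratios were 0.5606 for all members, 0.8051 for chaperones, 0.9875 for disulfide enzymes, 0.5586 for prolyl isomerases, 0.314 for degradation factors and 0.3803 for translocation genes. The median of the disulfide enzymes was 0.9533 with the software's ratio, 0.9491 with an offset of 0 and 0.9526 in the series table. That of the translocation genes was -0.0226 with an offset of 0 and 0.1847 when the probes of a gene were summarised by their median. With single arrays the median of all members ran from 0.3333 to 0.4088, of chaperones from 0.5636 to 0.635, of disulfide enzymes from 0.718 to 0.8186 and of degradation factors from -0.0323 (array 2 only) to 0.1288, and the pathway lists had 2 to 4 higher. No called gene changed direction in 11 alternatives, several of which could not change it. The genes *Canx*, *Derl1*, *Derl2*, *Dnajb9*, *Sec61g*, *Ssr1* and *Xbp1* changed direction in at least 1. The cause of these shifts was not tested. No paired analysis was possible because there was a single replicate per line, and with 1 slide no slide effect could be fitted. Dim spots limit *Ero1lb* and *Derl3* most.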

Other observations

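Genes on chromosome 13 had a median log2 ratio of -0.17 over 438 detected genes other than the members, and 3 of the 34 detected members, *Txndc5*, *Ero1lb* and *Ssr1*, lie there. On the other chromosomes that hold detected members the medians lay between -0.03 and 0.04. *Ero1lb* and *Txndc5* had the ratios 0.60 and 0.32 and *Ssr1* had -0.17. Whether the copy number of these genes differs between the lines was not tested.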
